A study of Arabidopsis thaliana with 18 samples.

Results

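The transcripts described here are 153 probe sets of the ATH1 array whose signal was low on the first 3 arrays of each treatment and higher on the 6 later ones. ATH1 is a microarray that reads most nuclear genes of Arabidopsis thaliana through sets of short probes. The 153 were chosen from 22746 probe sets, after 64 control probe sets had been set aside. The values that chose them were the mean log2(signal + 2) of set 1, set 2 and set 3, which are runs of 3 consecutive first title numbers, explained below. A member had to lie lower in set 1 than in set 2 and than in set 3 by 0.7 or more on this scale, in the silwet samples and again in the SA samples. It also had to reach a mean signal of 50 over the 18 arrays. A few genes listed by name in the rule, any UGT or CYP71B gene and plastid genes were left out, which removed 1 probe set, that of EXPA8. The low level in set 1 is therefore how the transcripts were picked and is given below as a description.

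All samples were total RNA of the accession Van-0. In 9 samples the treatment was 0.02% silwet, an organosilicone surfactant that helps a spray wet the leaf surface. In the other 9 it was 0.30 mM SA in the same 0.02% silwet, so the controls carried the surfactant too. SA, salicylic acid, is a plant hormone that switches on defence against many pathogens. The labels used here give no tissue, plant age, time after treatment or plant identity for any sample. Each title holds a Rep number from 1 to 3 and a pair of other numbers. The second of these is lowest on the Rep 1 arrays, higher on Rep 2 and highest on Rep 3, with no overlap, in both treatments together. Arrays are called here by treatment and by the order of the first number, silwet 1 to 9 and SA 1 to 9. Arrays 1 to 3 of a treatment form set 1, arrays 4 to 6 set 2 and arrays 7 to 9 set 3, and each set holds Rep 1, 2 and 3 in that order. What a set, a Rep number or the second number marks is not stated in the labels, and since no label says that samples came from separate plants, the p-values below reflect only the differences among these arrays, part of which may be technical.

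The deposited signals were on a linear scale on which each array had a trimmed mean of about 100, and the median signal over all probe sets ran from 23.3 to 36.6 per array. Arrays silwet 4 and silwet 7 stood apart in the GAPDH control, where the probe set at the 5′ end read 0.465 and 0.225 of that at the 3′ end, against 0.767 to 1.29 on the other 16 arrays. In the actin control the same ratio was 0.132 on silwet 4 and 0.0471 on silwet 7, against 0.139 to 0.407 on the other 16 arrays. Silwet 4 thus lay close to the others in actin. Silwet 4 and silwet 7 are both Rep 1 arrays. Without them 108 probe sets met the rule, 84 of them members, and the results below that moved most are also given without them.

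Several gene families recur below, and whether any is more frequent here than on the whole array was not tested. GDSL-type lipases are secreted esterases, some of which build or trim the waxy cuticle and wall lipids of the shoot. Pectate lyases and pectin acetylesterases change pectin, the gel of the plant cell wall, and expansins loosen the wall so that a cell can grow. Lipid transfer type proteins are small secreted proteins that bind lipids, and chitinases and beta-1,3-glucanases attack the walls of fungi. Statements about what a gene does are background knowledge and not results of these arrays.

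Of the 153 members, 79 had 1 gene in the annotation used here, 5 matched several genes and 69 are unnamed here. Among the 79, 11 carried a symbol and 68 only a locus name. Mean signals over the 18 arrays ran from 51.3 to 1207, with a median of 144, so most members were moderately bright. The smallest of a member's 4 gaps, which is the gap that decided its place, had a median of 0.89 and reached 2.35 on the log2 scale, and 42 members had all gaps at 1 or more. The narrowest gap was a silwet gap in 127 members and an SA gap in 26. The median of the members' mean gap was 0.98 in silwet and 1.55 in SA, against 0.02 and 0.04 over all 22746 probe sets. The SA gap was the wider one in 139 of 153 members.

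The arrays themselves show how the groups lie. The median member signal on silwet arrays 1 to 3 was 81.5, 75.3 and 83.1. It was 207, 147 and 157 on silwet 4 to 6 and 207, 200 and 168 on silwet 7 to 9. On SA arrays 1 to 3 it was 54.1, 51.1 and 51.0, then 185, 181 and 199 on SA 4 to 6 and 193, 190 and 165 on SA 7 to 9. All 6 arrays of set 1 thus lay below all 12 later arrays in this median, and the 3 SA arrays of set 1 lay lowest. The 3 arrays of set 1 lay below the 6 later ones without overlap in 89 members in silwet, in 142 in SA and in 84 in both. These are values the rule used, and over all 15922 probe sets tested such a separation held for 3.32%, 16.6% and 2.05%. With silwet 1 set aside, 127 members had no overlap in silwet. Leaving out an array can only keep or raise such a count. The share over all probe sets, and the counts without silwet 2 or silwet 3, were not computed. Without silwet 4 and silwet 7, the separation held in silwet for 100 members and 5.84% of all probe sets, and in both treatments for 94 members and 3.16%. The median mean gap in silwet was then 0.90 for the members and 0.08 for all probe sets. Between the later sets the rule fixed no order: set 3 lay above set 2 in 111 members in silwet, by a median of 0.10, and in 59 in SA, where the median was -0.12.

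**Figure D1:**
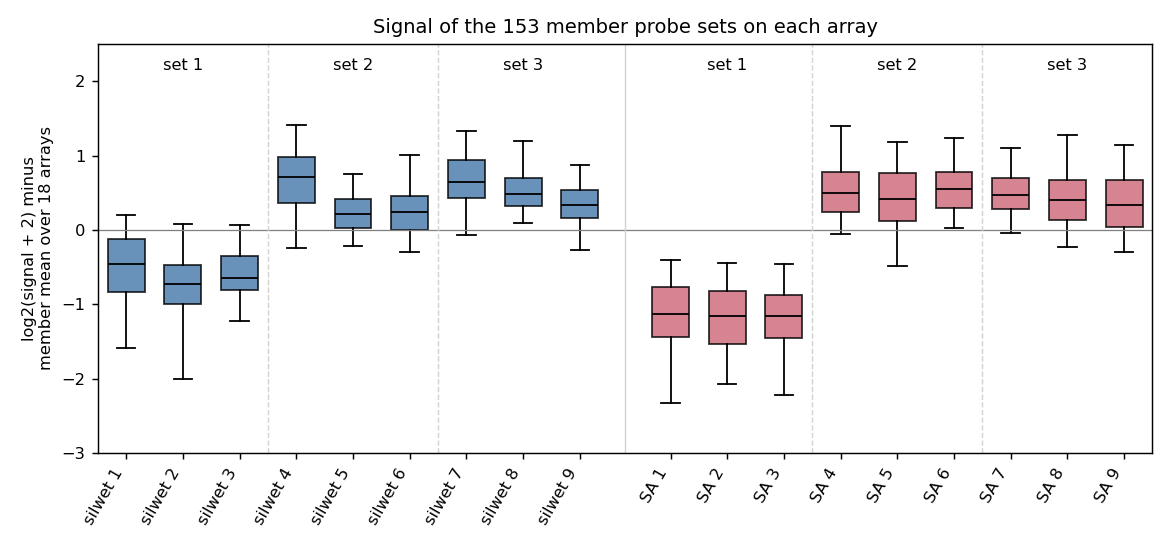
The plot shows, for each of the 18 arrays, the log2(signal + 2) of the 153 members minus each member's mean over all arrays, with boxes from the lower to the upper quartile, the median as a line and whiskers from the 5th to the 95th percentile. The set 1 boxes lie below 0 in both treatments, those of SA lowest, and silwet 4 and silwet 7 lie highest among the silwet arrays.

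At the edge of the rule, the members with 1 gene just inside were AT5G63180, a pectate lyase family gene with a smallest gap of 0.703, LSMT-L (AT1G14030), a lysine methyltransferase of the chloroplast, with 0.704, and AT3G44450, with 0.705. Just outside were HTB1, a histone H2B gene, with 0.698, AT1G65900 with 0.697 and AT1G45230 with 0.696. These gaps differ by far less than the spread between replicates, whose median SD within a set over all members was 0.45 in silwet and 0.32 in SA on the same log2 scale.

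The lipases were the largest family recognised among the named members, with 7 genes. In each of the 7, set 1 lay below the later sets without overlap in both treatments. That separation, on values the rule used, held in 84 of all 153 members and in 2.05% of all probe sets tested. The families were put together after the values had been seen. AT1G29660 read 228, 265 and 299 on silwet 1 to 3, and on the 6 later silwet arrays between 536 and 835 with a median of 698. On SA 1 to 3 it read 98.2, 119 and 149, and on the later SA arrays between 578 and 794 with a median of 672. Set 1 is well apart from the later sets in each treatment, and within set 1 the SA arrays all lie below the silwet arrays. AT4G18970 read 66.4, 67.4 and 83.1 on silwet 1 to 3 and 176 to 260, median 215, on the later silwet arrays. Its SA values were 47.4, 44.6 and 53.5 in set 1 and 212 to 287, median 227, later. Its smallest gap of 1.41 was well above the threshold, and here too no SA array of set 1 reached a silwet array of set 1.

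AT4G28780 had the widest smallest gap of the lipases, 1.57. It read 18.8, 20.8 and 17.3 on silwet 1 to 3 and 36.2 to 115, median 68.5, later. The SA values were 18.0, 10.6 and 18.6 in set 1 and 67.2 to 136, median 112, later, so in this gene the treatments overlapped in set 1. AT5G45670 had a smallest gap of 1.51, with 36.2, 41.7 and 64.1 on silwet 1 to 3 and 114 to 159 later. AT3G16370 was the brightest lipase. It read 563, 798 and 712 on silwet 1 to 3 and 981 to 1834, median 1230, later, with 438.3, 706 and 535 on SA 1 to 3 and 989 to 1505, median 1142, later. Set 1 and the later sets did not overlap in it, while silwet and SA did in set 1. AT1G75900 and AT5G33370, added after their values were seen, complete the family, with smallest gaps of 0.73 and 0.79.

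Enzymes of the cell wall made up 6 named members. AT1G67750, a pectate lyase family gene, read 99.3, 57.7 and 60.8 on silwet 1 to 3 and 76.7 to 209, median 149, later. On SA 1 to 3 it read 16.6, 15.3 and 35.0 and on the later SA arrays 168 to 324, median 199. Its silwet arrays overlapped between sets, because silwet 1 lay above silwet 4 and silwet 7, while the SA arrays were far apart. AT4G24780, of the same family, read 298, 194 and 213 on silwet 1 to 3 but 90.4, 121 and 73.6 on SA 1 to 3. The later arrays read 286 to 801 in silwet and 302 to 912 in SA, so the SA gap was the wide one here as well. AT5G63180, of the same family, overlapped between sets in both treatments, with 107, 343 and 268 on silwet 1 to 3 and 317.7 to 601 later. AT1G67750 and AT4G24780 were chosen after their values were seen.

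AT1G57590, a pectin acetylesterase family gene, read 55.0, 68.7 and 74.9 on silwet 1 to 3 and 78.4 to 183, median 153, later. On SA it read 34.1, 33.5 and 42.4 in set 1 and 41.7 to 166, median 86.1, later. SA 9 fell inside the range of set 1, and the silwet arrays did not overlap. EXPB1 (AT2G20750), a beta-expansin and the only expansin among the members, read 27.5, 27.9 and 42.6 on silwet 1 to 3 and 18.5, 39.4 and 27.7 on SA 1 to 3. The later arrays read 60.9 to 210, median 80.1, in silwet and 55.5 to 183, median 85.0, in SA, with the Rep 2 array of set 3 the highest in both treatments. The sets did not overlap and the treatments did. The sixth gene, AT5G15050, encodes a glucuronosyltransferase of wall arabinogalactan and had a smallest gap of 0.75.

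Lipid transfer type proteins were 4. AT4G12490 and AT4G12500, relatives of the systemic immunity gene AZI1, read alike. AT4G12490 gave 43.2, 37.0 and 43.5 on silwet 1 to 3 and 30.6, 19.2 and 17.3 on SA 1 to 3, against 77.8 to 251 and 54.5 to 191 on the later arrays. AT4G12500 gave 41.3, 63.1 and 77.7 and then 28.9, 11.1 and 34.0 in set 1, against 96.4 to 280 and 78.3 to 179 later. In both genes every SA array of set 1 was below every silwet array of set 1, and set 1 was clear of the later sets in each treatment. How far a probe of one of these close relatives also reads the other was not tested. AT3G53980 and AT4G33550 had smallest gaps of 0.89 and 0.79.

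Secreted defence enzymes were 4 members. CHI (AT2G43570), a chitinase, read 813, 141 and 332 on silwet 1 to 3 and 327.5, 343 and 472 on SA 1 to 3. Its later arrays ran from 541 to 887, median 672, in silwet and from 676 to 1054, median 778, in SA. The silwet arrays of set 1 thus spanned most of the range of all silwet arrays, and silwet 1 lay among the later ones. AT4G16260, a beta-1,3-glucanase, read 42.2, 17.2 and 51.3 on silwet 1 to 3 and 14.4, 30.3 and 49.3 on SA 1 to 3. Later it read 54.6 to 239, median 119, in silwet and 96.8 to 306, median 161, in SA. The sets were clear of each other in it, and the treatments overlapped throughout. AT1G26390, of the berberine bridge enzyme family, and AT1G71695, a peroxidase, were the other two.

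Peptidases were 5 members, chosen after their values were seen. AT3G54400, an aspartyl protease, read 160, 254 and 131 on silwet 1 to 3 and 91.4, 108 and 74.2 on SA 1 to 3, against 230 to 368 and 272 to 409 on the later arrays. AT5G42240 (scpl42), a serine carboxypeptidase-like gene, read 59.9, 54.1 and 79.7 and then 43.5, 25.9 and 48.2 in set 1, against 91.5 to 121 and 95.01 to 141 later. In both genes the SA arrays of set 1 were below the silwet arrays of set 1, and silwet 2 overlapped the later silwet arrays in AT3G54400 only. A subtilase, AT4G30020, a carboxypeptidase, AT5G65760, and a cathepsin B-like protease, AT1G02305, were the other three.

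Proteins of the chloroplast were 5. CaS (AT5G23060), a calcium sensor of the thylakoid membrane, read 629, 443.6 and 357 on silwet 1 to 3 and 609 to 1167, median 734, later. On SA it read 267, 350 and 184 in set 1 and 568.4 to 1008, median 761, later. Every SA array of set 1 lay below every silwet array of set 1, and only the silwet sets overlapped. DPE1 (AT5G64860), a plastid enzyme of starch breakdown, read 125, 80.2 and 105 on silwet 1 to 3 and 141 to 218 later, with 77.4, 42.6 and 52.7 on SA 1 to 3 and 127 to 301 later. Its sets did not overlap in either treatment. CRR41 (AT1G51100), a factor of the NDH complex, and AT5G46580, a PPR protein, had smallest gaps of 0.77 and 0.72, and LSMT-L is given above.

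Other members by the naming rule had less family company. AT2G44240 had the widest smallest gap of all members with 1 gene, 2.08, with 26.2, 9.90 and 51.5 on silwet 1 to 3 and 2.27, 65.1 and 20.3 on SA 1 to 3. Its later arrays read 66.3 to 224 in silwet and 62.4 to 257 in SA, so SA 2 reached into the later range. AT2G40435 read 24.7, 20.6 and 26.8 on silwet 1 to 3 and 7.10, 12.9 and 8.06 on SA 1 to 3, against 56.0 to 119 and 47.3 to 145 later, with no overlap between set 1 and the later sets, nor between SA and silwet in set 1. AT3G19550 had a smallest gap of 1.41, AT5G12940, a leucine-rich repeat protein, 1.33, and AT2G29170 1.31. The brightest others were AT3G23600, of the dienelactone hydrolase family, AT3G08030, a DUF642 protein of the wall, and AT1G73600, a relative of phosphoethanolamine methyltransferase, which makes a precursor of membrane lipids. Their mean signals over the 18 arrays were 986, 738 and 553.

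Histones formed the one group seen through probe sets that match several genes. The probe sets 247192_at, 250434_at and 264262_at match the same 5 histone H3 loci, and 247692_s_at matches 8 histone H4 loci, so none can be given to 1 gene. 247192_at read 891, 454 and 473 on silwet 1 to 3 and 590, 594 and 428 on SA 1 to 3, against 891 to 1474 and 843 to 1308 on the later arrays. Silwet 1 was the highest array of set 1 in it. The 4 are not independent of each other, since they share loci or belong to sets of genes read together. In set 1 the SA minus silwet difference of the 4 lay between -0.16 and -0.08 on the log2 scale, close to 0.

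**Figure D2:**
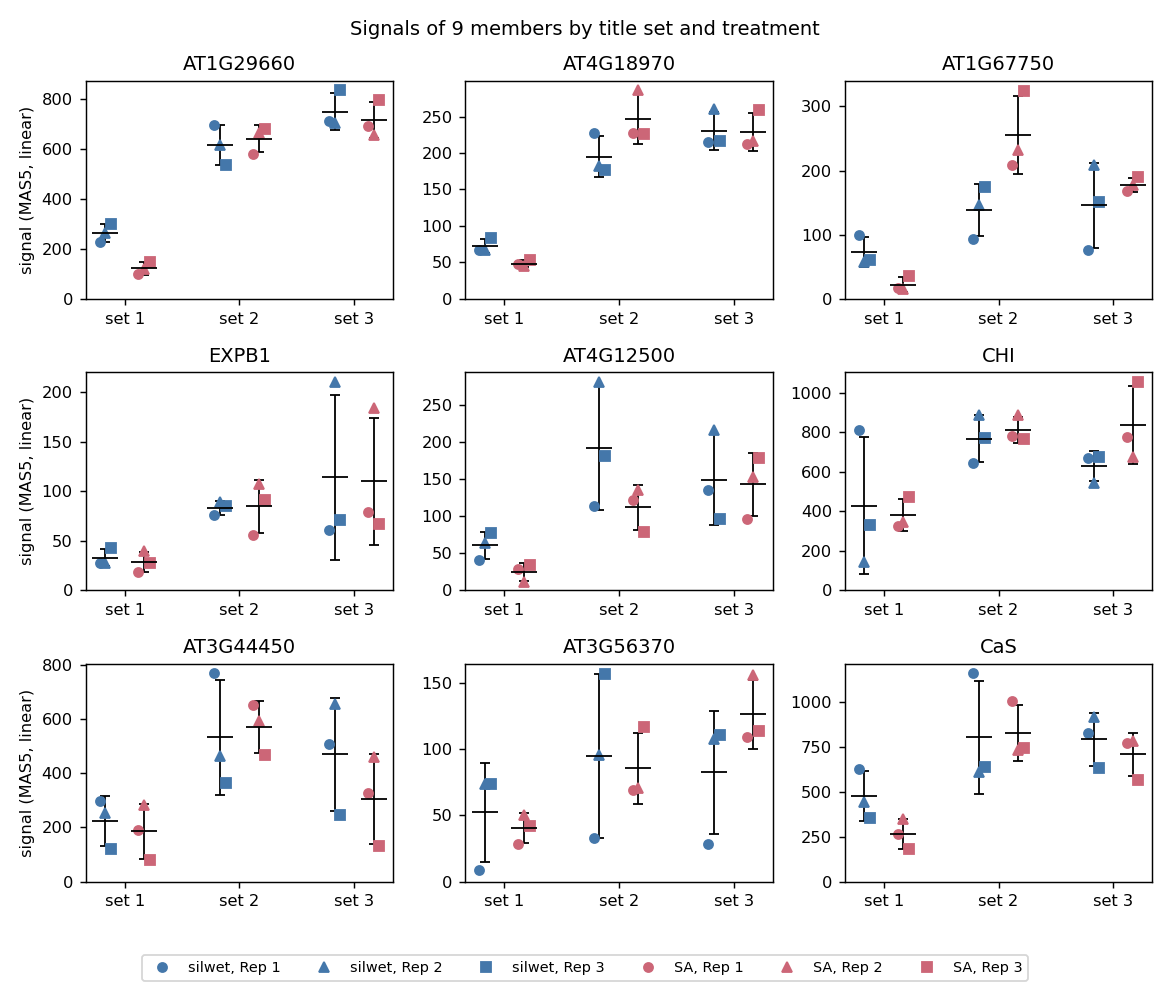
Each panel plots the linear signal of 1 member by set, silwet in blue and SA in red, with circles, triangles and squares for Rep 1, 2 and 3, and the mean with its SD over 3 arrays in black. AT1G29660, AT4G18970 and AT4G12500 show set 1 apart from the later sets with SA lowest, CHI shows the wide silwet spread of set 1, and AT3G56370 shows low Rep 1 circles in silwet.

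The question the labels set is whether SA changed transcript levels against silwet alone. Over all 18 arrays, with the set as a block, no member passed the test. Limma called 0 of 153 members at a Benjamini-Hochberg adjusted p of 0.05, and 16 had an unadjusted p under 0.05. Over all 15922 probe sets tested, 1 was called, or 0.00628%. Here and below, counts at an unadjusted p are of members only. The share of all probe sets at that cut is not given, so nothing is read from them. The estimate was lower with SA in 127 of 153 members, with a median of -0.16 against -0.02 over all probe sets. The set 1 means, which entered the rule, are part of this estimate, so its direction is a description. The members with the smallest p were AT1G57590 at -0.70 ± 0.23 (SE), AT4G12500 at -0.69 ± 0.26 and AT2G29170 at -0.46 ± 0.18 on the log2 scale, each with a limma adjusted p of 1.0. In simulated data of the same size, with the same SA change in all 3 sets and independent noise, this test recovered 69.2% of 2-fold changes.

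Within set 1, limma with Benjamini-Hochberg adjustment called 4 members lower with SA and none higher. That is 2.61% of the members, beside 0.352% of all probe sets called lower and 0.458% called higher. The set 1 means that this contrast compares also entered the rule, so the shares are a description and nothing is read from their difference. AT1G29660, the lipase, averaged 264 ± 35.5 (SD, n = 3) with silwet and 122 ± 25.5 with SA, a log2 difference of -1.12 ± 0.19 (SE). AT1G67750, the pectate lyase, averaged 72.6 ± 23.2 with silwet and 22.3 ± 11.02 with SA, a difference of -1.66 ± 0.37. The other two, 252965_at at -1.65 and 255779_at at -1.01, are unnamed here. The 3 SA arrays lay below the 3 silwet arrays in each of the 4. These 4 were singled out after their values were seen.

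The estimate in set 1 was lower with SA in 141 of 153 members, 92.2% against 50.9% of all probe sets, with a median of -0.49 against -0.01. In 62 members all 3 SA arrays lay below all 3 silwet arrays of set 1, in 0 members above, and the first pattern held for 10.1% of all probe sets. By family, the estimate was lower in 7 of 7 lipases with a median of -0.55, in 6 of 6 wall enzymes with -0.74, in 4 of 4 lipid transfer type proteins with -0.81, in 5 of 5 chloroplast proteins with -0.80 and in 5 of 5 peptidases with -0.41. The 4 secreted defence enzymes had 2 estimates below 0 and a median of 0.08, with CHI at 0.16 ± 0.41 (SE) and AT1G71695 at 0.32 ± 0.30. No difference between families was tested.

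This direction does not stand apart from the choice of members, since the set 1 means of both treatments entered the rule. Over all probe sets tested, the gap between set 1 and the later sets had an SD of 0.85 in SA and 0.52 in silwet. Any SA response in set 1 is part of that spread. Whether the choice of members adds to the shift was not tested. The transcripts chosen in the mirrored way, high in set 1 in both treatments, were higher with SA in set 1 in 248 of 300, with a median of 0.45. Those 300 come from the same arrays and were chosen on the same set means, so their direction is a description too.

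The count of calls in set 1 hung on single arrays. It was 0 without SA 1 or SA 2, 1 without silwet 2, silwet 9, SA 4, SA 7 or SA 8, 2 without silwet 1, silwet 8, SA 3, SA 5 or SA 6, and 10 without silwet 4. In set 2, limma with Benjamini-Hochberg adjustment called 0 members and 0% of all probe sets, the median difference was 0.11, and 10 members had an unadjusted p under 0.05. In set 3 it called 0 members and 0% of all probe sets, the median was -0.11, and 2 members had an unadjusted p under 0.05. Without silwet 1, silwet 4 and silwet 7, it called 29 members in set 2. Their direction and the share of all probe sets are not given here, so nothing is read from that count. AT1G29660 averaged in set 2 616 ± 79.2 (SD, n = 3) with silwet and 641 ± 54.8 with SA, where the treatments overlapped.

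**Figure D3:**
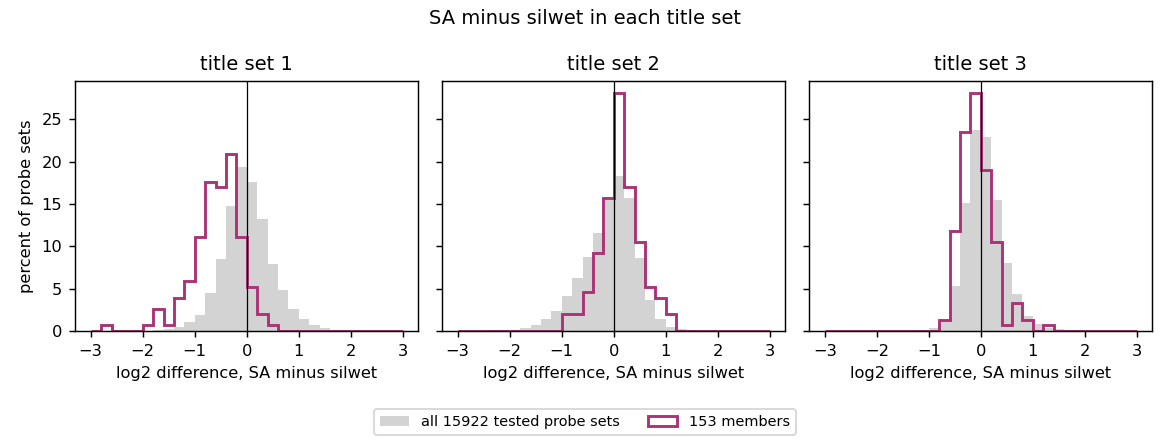
The panels plot the log2 difference, SA minus silwet, in each set as percent of probe sets, for the 153 members as a purple outline and all 15922 tested probe sets in grey, with values beyond 3 drawn at the edge. The members sit left of 0 in set 1, with a median of -0.49, and around 0 in sets 2 and 3, with medians of 0.11 and -0.11.

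The SA difference of sets 2 and 3 was also set beside that of set 1, a contrast added after the values were seen. It equals the SA gap minus the silwet gap, both of which the rule used, so it is given as a description and nothing is read from its counts. It was 2.31 in AT1G67750 and 1.11 in AT1G29660 on the log2 scale, with a median of 0.51 over the members. It was above 0 in the same 139 of 153 members whose SA gap was the wider one. Past limma's threshold with Benjamini-Hochberg adjustment were the same 4 members, and 0.572% of all probe sets. That count was 0 without SA 1, SA 2 or SA 6, 1 without silwet 1, silwet 2 or silwet 5, 2 without SA 3 or SA 4, and 16 without silwet 4. The F-test over the 3 sets, built on the same means, called 0 members and 0.17% of all probe sets by limma with Benjamini-Hochberg adjustment. By the same test 39 members had an unadjusted p under 0.05, again without the share of all probe sets at that cut.

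The Rep number is a label that the rule did not use, but the arrays compared by it entered the set means of the rule. By limma's F-test within the 6 cells of treatment and set, 13 of 153 members, 8.5%, differed between Rep numbers after Benjamini-Hochberg adjustment, beside 4.6% of all probe sets. These shares are a description too, and nothing is read from their difference. AT3G44450, whose product (known as BIC2) holds back the blue light receptor cryptochrome, had the smallest adjusted p of the members, 0.0174 by limma. The histone probe sets 247692_s_at and 264262_at were among the 13, at limma adjusted p-values of 0.0224 and 0.0386. AT3G44450 read 298, 254 and 121 on silwet 1 to 3, 769, 462 and 365 on silwet 4 to 6 and 509, 656 and 244 on silwet 7 to 9. On SA it read 192, 284 and 81.3, then 653, 593 and 465, then 328, 459 and 130. The Rep 3 array was the lowest of its set in all 6 cells. Among members with 1 gene AT5G08400 came next, with Rep 2 the lowest array in all 6 cells, at a limma adjusted p of 0.0388. AT3G56370, a leucine-rich repeat receptor kinase, had a limma adjusted p of 0.0394.

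In AT3G56370 the Rep 1 arrays were the low ones. It read 9.11 on silwet 1 against 73.9 and 73.6 on silwet 2 and 3, 32.7 on silwet 4 against 95.7 and 157, and 28.7 on silwet 7 against 108 and 111. On SA the Rep 1 arrays read 28.3, 69.0 and 109 and the others 42.0 to 156, so there Rep 1 was the lowest of its set too, by less. The count of 13 was 0 without silwet 4 and 1 without silwet 7, 2 without silwet 9, and 3 without silwet 3, silwet 5, silwet 6, silwet 8, SA 6 or SA 8. It was 4 without silwet 1, silwet 2, SA 2 or SA 3 and 5 without SA 1. The Rep difference was not found to depend on treatment, with 0 members and 0% of all probe sets called by limma's F-test with Benjamini-Hochberg adjustment and 19 members at an unadjusted p under 0.05.

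Rep 1 was therefore set against Rep 2 and 3 within each treatment, a contrast added after the values were seen. On the silwet arrays, limma with Benjamini-Hochberg adjustment called 45 members higher on Rep 1, 29.4% of the list, and 6 lower, 3.92%. Of all probe sets 9.11% were called higher and 15.5% lower. The silwet arrays compared here also entered the set means of the rule. The shares are therefore a description, and nothing is read from their difference. The median difference was 0.31 over the members and -0.14 over all probe sets. The silwet Rep 1 array was the highest of its set in all 3 sets in 51 members, and in 12.6% of all probe sets. On the SA arrays limma with Benjamini-Hochberg adjustment called 0 members and 0% of all probe sets, the median was 0.10, and 11 members had an unadjusted p under 0.05.

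Members of several roles rose on Rep 1 of silwet. AT1G48330 read 173, 111 and 82.4 on silwet 1 to 3, 610, 195 and 163 on silwet 4 to 6 and 389, 263 and 98.8 on silwet 7 to 9, a difference of 1.29 ± 0.26 (SE, limma adjusted p = 0.00483). The Rep 1 array was the highest of each set. AT3G26960, a pollen Ole e 1 type protein, was higher by 1.14, the histone probe sets 247692_s_at by 1.15 and 264262_at by 0.92, and the peptide genes CLE27 (AT3G25905) by 0.94 and RALFL24 (AT3G23805) by 0.72. AT5G12940 was higher by 0.75, AT2G29170 by 0.65, CaS by 0.56 and AT5G08400 by 0.50. None of the 7 lipases passed this test in either direction. AT3G56370 at -2.16 ± 0.24 (SE) and LSMT-L at -1.55 ± 0.28 were the named genes called lower. AT1G48330, AT3G26960, CLE27, RALFL24 and the probe sets were chosen after their values were seen.

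Silwet 4 and silwet 7, with the low GAPDH ratios, are both in the Rep 1 contrast, and the part of those ratios was not tested. Without silwet 4, 5 members were called higher on Rep 1 of silwet, and without silwet 7 there were 56. Without silwet 1 or silwet 6 there were 29, and without silwet 4 and silwet 7 together there were 20. Silwet 4, also a Rep 1 array of set 2, enters the set 2 mean that the rule used. Without it 101 probe sets met the rule, 94 of them members, and without silwet 1, a Rep 1 array of set 1, 262 did, 124 of them members.

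**Figure D4:**
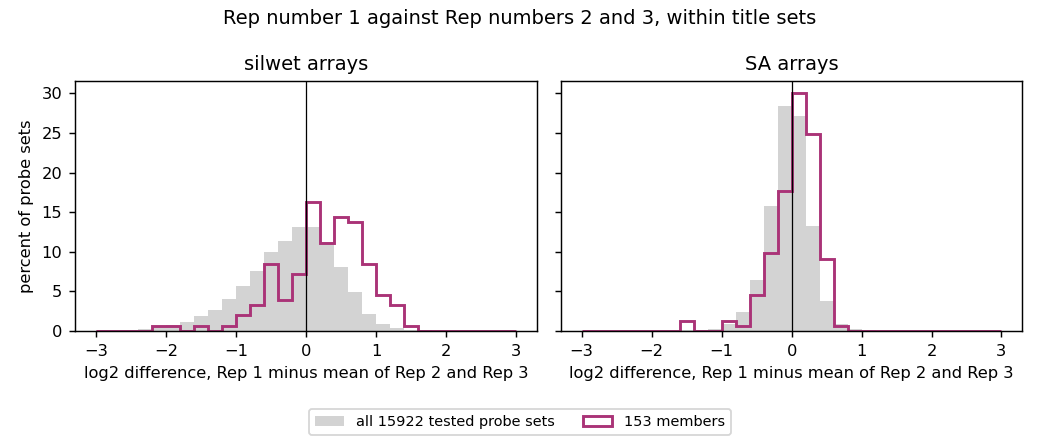
The panels plot the log2 difference of the Rep 1 array from the mean of Rep 2 and Rep 3, within sets, for silwet and for SA, as percent of probe sets, with the 153 members as a purple outline and all 15922 tested probe sets in grey. In silwet the members lie right of 0, with a median of 0.31 against -0.14 for all probe sets, and in SA the medians are 0.10 and -0.03.

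The members were also compared within the 6 cells. The median correlation of a pair of members, over the deviations of the 18 arrays from their cell means, was 0.13, and that of pairs of all probe sets 0.02. It is a description over 18 arrays that share their treatment and set. The members most like the median profile of the list, by Pearson correlation over the 18 arrays, were the lipases AT4G18970 at 0.979, AT1G29660 at 0.966 and AT1G75900 at 0.964, with AT2G41950 at 0.966 and AT3G19550 at 0.957. The closest probe sets outside the list were AT5G43140 at 0.960, AT3G53190 at 0.956, AT5G20130 at 0.952, CYP71B37 at 0.947, which the rule left out by name, and AT2G26360 at 0.947.

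Among the pathway lists, which were chosen with earlier results of these data known, members were few. EXPB1 was 1 of 9 expansins tested and DPE1 1 of 2 genes of starch and sucrose metabolism tested. The lists could be read only in small part, because few of their genes had a probe set with 1 gene. That held for 3 of 11 SA response genes, 2 of 11 jasmonate genes, 3 of 19 nuclear photosynthesis genes, 4 of 20 abscisic acid and drought genes and 1 of 19 clock genes, and none of these was a member. Of the 36 lists, 25 had a tested gene, and no tested gene of these passed the SA test over 18 arrays by limma with Benjamini-Hochberg adjustment. Within set 1, 1 of 3 SA response genes tested was called higher with SA, beside 0.458% of all probe sets. Called lower there were 1 of 11 beta-glucosidases and 1 of 5 serine carboxypeptidase-like genes tested, beside 0.352%. None of these was a member. Among markers of mesophyll, RCA lay between 1429 and 4059 on all arrays, and STOMAGEN, which promotes stomata, missed the rule with mean gaps of 0.89 in silwet and 2.08 in SA. The guard cell marker FMA read 26.4 to 61.4. Of 7 root markers listed, EXPA7 and EXPA18 had a probe set, and both stayed at 25.5 or less. The flower and seed lists had no probe set with 1 gene, so those tissues could not be checked.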

How the data were processed

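The authors deposited linear intensity values of 22810 probe sets on 18 arrays, made with MAS5 per the submitters' processing notes. MAS5 summarises the probes of a set on each array alone and scales arrays to a common level. The MAS5 version and the scanner are not stated in the sources used here.

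Signals were analysed as log2(signal + 2), which understates changes of low signals. After removing controls and the lowest 30% by mean, 15922 probe sets were tested with limma 3.58.1 under R 4.3.3, by lmFit and then eBayes with the intensity trend. Tests were two-sided, with p-values adjusted by Benjamini-Hochberg over all of these probe sets and a threshold of 0.05. SA was compared with silwet over 18 arrays with the set as a block, and in each set by a fit of the 6 cells of treatment and set, with 3 arrays each. The number of arrays limits the precision. In the simulation below, noise was independent between arrays, and the SA change over all arrays was equal in each set. On simulated data (5 runs, 200 changed probe sets each), 2-fold and 4-fold changes were recovered in 69.2% and 98.0% for SA over all arrays, 27.8% and 80.2% for set 1, and 52.6% and 93.2% for the Rep number.

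Same-numbered silwet and SA arrays were checked for pairing before calls were compared. Correlations of their deviations ran from 0.02 to 0.53 over 9 pairs, so the numbers were not used as pairs. Names come from the platform annotation with symbols of TAIR10.1. Of 22746 probe sets, 13513 had 1 gene, of which 13436 matched, 503 had several and 8730 are unnamed here. The members and the gene lists were chosen with earlier results of these data known. Named genes are members with 1 gene: the 12 with the widest smallest gap, the 6 brightest, up to 3 from each list, the 3 with the smallest p for SA (none passed) and for the Rep number, 3 on each side of the threshold, and the 5 members and 5 other probe sets most like the median profile. Others are said in the text to be chosen after their values were seen. Alternatives covered pseudocount, filter, normalization, blocks, trend, array weights and each array left out.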

Additional observations from a re-analysis of the deposited data

Results flagged for a closer look

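In 52 groups of 9 arrays, the named members under each treatment and the median profile, a single array stood apart by Dixon's criterion in 2. Chance gives about 1 in 20, or 2.6 of 52. AT2G44240 read 257 on SA 8, against 2.27 to 104 on the other SA arrays. EXPB1 read 210 on silwet 8, against 27.5 to 89.1 on the other silwet arrays. SA 8 and silwet 8 are both Rep 2 arrays of set 3. The SA difference of the later sets was above that of set 1 in 4 members past limma's threshold, but the contrast is built from the set means that chose the members, so these values are a description: 1.11 in AT1G29660, 2.31 in AT1G67750, 1.84 in 252965_at and 1.28 in 255779_at on the log2 scale.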

How the results depend on the processing

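The number of probe sets meeting the rule was 101 with a mean signal of 100, 108 without silwet 4 and silwet 7 (84 of them members), and 101 to 262 as each array was left out. The count of 0 members for SA over all arrays stayed 0 under all alternatives run. The 4 calls in set 1 became 1 with a pseudocount of 16, 1 with median centring, 2 without the filter on dim probe sets, 13 with the Rep number as a replicate block, 14 without silwet 4 and silwet 7, 11 without silwet 1 too, and 0 to 10 as each array was left out. In set 2, 29 members were called without those 3 arrays, with no share of all probe sets beside them, so nothing is read from the count. The later sets against set 1 gave 1 with median centring, 13 with the replicate block, 21 without silwet 4 and silwet 7 and 0 to 16 with 1 array out. The block changed no other call, and no label says that a Rep number, or the second title number that runs with it, marks a shared batch or plant. Each Rep number's mean deviations correlated best with its own number across treatments (0.35, 0.42 and 0.32), a hint from the data only. The 13 calls for the Rep number became 29 with median centring, 4 without the filter, 4 without the trend, 0 without silwet 4 and silwet 7, and 0 to 18 with 1 array out. The 45 calls on Rep 1 of silwet became 72 with median centring, 20 without silwet 4 and silwet 7, and 5 to 56 with 1 array out. The SA estimate changed sign as single arrays were left out in 6 of the 25 members examined by the naming rule, none of them called: EXPB1 (-0.20 to 0.083), AT3G23600 (-0.098 to 0.049), AT3G08030 (-0.090 to 0.083), DPE1 (-0.18 to 0.0080), AT5G08400 (-0.14 to 0.021) and LSMT-L (-0.094 to 0.21). Where no value above shows a cause, the cause was not tested. All other results, 782 of 865 values under alternatives, kept their direction and side of the threshold, moved by less than the spread between replicates or, for counts, stayed within a fixed factor. A count in this group need not be equal to the main one. With median centring, for instance, 203 probe sets met the rule, beside 153. Signals here carry no counts, so depth sets no limit beyond the number of arrays.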
